A study of Mus musculus with 11 samples.

Results

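Cathepsins are the main proteases of the lysosome, and legumain (Lgmn) works beside them. The 10 genes described here were taken by symbol from the raw count table: the cathepsin genes Ctsa, Ctsb, Ctsc, Ctsd, Ctsh, Ctsl, Ctss and Ctsz, the legumain gene Lgmn, and Cst3, which encodes cystatin C. The list was drawn up around proteases that can cut α-synuclein. Cst3 is no protease but a secreted inhibitor of such enzymes, and is treated as such below. These are 10 of 16934 genes in the table, and all 10 passed the filter on low counts and were tested.

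The libraries came from primary microglia of C57BL/6 mice, the resident phagocytes of the brain, prepared from pups aged 0 to 3 days and grown for 7 to 10 days without passage. One group of 4 libraries held microglia cultured alone. A second group of 3 held microglia after 6 h of co-culture with primary cortical neurons, 14 days in vitro, that had been left untreated. The other 4 held microglia after 6 h with such neurons that had first been given 0.1 µM of α-synuclein fibrils, tagged with the dye Atto488, for 16 h and then washed. Per its title, the series concerns tunneling nanotubes, thin membrane bridges between cells. No genotype or transgene is named for any group, and no group of microglia with free fibrils or of neurons alone was analysed here. How microglia were separated from neurons before extraction is not given in the sources used here. Nor do the labels say whether replicate libraries stem from different cultures or mice. The p-values therefore reflect only how these libraries scatter, and that scatter may be technical.

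Lysosomal cathepsins are made as inactive precursors, carried to the lysosome on mannose 6-phosphate receptors, and activated there by cleavage in acid. Most belong to the papain-like cysteine proteases, whereas cathepsin D is an aspartic protease and cathepsin A a serine carboxypeptidase. Cystatins are tight-binding inhibitors of the papain-like enzymes. Microglia are rich in these proteases, which degrade material taken up from neurons, and cathepsins B, D and L are known to degrade α-synuclein in lysosomes.

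Total counts ran from 8253070 to 16802451 per library, and between 9157 and 11739 genes had at least 1 count. The 13 microglial markers summed to between 10381 and 18485 CPM (counts scaled to library size by the TMM method) in every library, although Tmem119 and P2ry12, markers of microglia in the intact brain, were low, at group means of at most 40.9 and 9.70 CPM. The neuronal markers summed to between 1.07 and 180 CPM. Snap25 was at 0 in all 11 libraries, whereas Dcx, Map2, Tubb3 and Gad2 had means of 48.6, 25.0, 18.9 and 10.2 CPM in microglia alone. The astrocyte markers summed to between 17.0 and 102 CPM. Gfap was at 0 in the libraries of microglia alone. Beside untreated neurons it reached 21.6 CPM, with a mean of 7.21 ± 12.5 CPM. Aldoc had a mean of 17.4 CPM in microglia alone. In bulk RNA, fewer cells of a type and less RNA per cell cannot be told apart.

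Sequence windows of 30 bases are shown for the members whose promoters held a motif linked to lysosomal genes or to myeloid expression, so that the sites can be set beside the values that follow. RefSeq promoter windows (GRCm38.p6, 250 bases before a start site) were matched for 8 of the 10 genes, 2 of them with 2 start sites; Ctsb and Ctsh had no entry. The palindromic E-box CACGTG, the core of the element bound by TFEB and its relatives at lysosomal genes, was in the windows of 4 genes. Read 5′ to 3′ on the gene's strand with the motif in capitals, these were:
Ctsl, chr13:64370739-64370768: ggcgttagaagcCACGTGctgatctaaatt
Lgmn, chr12:102439124-102439153: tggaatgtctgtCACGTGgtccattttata
Ctsd, chr7:142388048-142388077: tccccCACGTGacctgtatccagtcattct
Ctsd, chr7:142387908-142387937: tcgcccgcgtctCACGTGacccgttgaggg
Ctsa, chr2:164833749-164833778: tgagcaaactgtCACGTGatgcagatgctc

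The sites of Ctsl, Lgmn and Ctsd lay on the minus strand of the chromosome and that of Ctsa on the plus strand. Those of Ctsl, Lgmn and Ctsa fell inside the RefSeq gene, ahead of a start site further in, and both of Ctsd fell upstream of it. In the GENCODE M21 annotation Ctsd extends to chr7:142388038, so its site 98 bases before the start site falls inside the gene there. The motif began 236 bases before the start site used for Ctsl, 49 before that of Lgmn, 245 and 98 before that of Ctsd, and 12 before that of Ctsa. CACGTG was present in 6.02% of the 32851 windows of the same length in the table. The motifs were chosen after the sequences had been seen. That share is therefore background, and setting the member count against it is no test of enrichment.

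The promoters of 2 immune cathepsins each held another motif, on the plus strand and upstream of the gene:
Ctss, chr3:95526755-95526784: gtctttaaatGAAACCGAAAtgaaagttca
Ctsc, chr7:88277923-88277952: gtcactaactaACTTCCTCaggccacctcg

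In Ctss the capitals mark the paired core of an interferon-response element (GAAA, any 2 bases, GAAA), which was in 2.98% of all windows. In Ctsc they mark GAGGAAGT read from the other strand, the core bound by the myeloid factor PU.1, which was in 2.44%. All motifs were searched on both strands. A match describes the letters only, and binding was not measured.

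The 10 genes made up between 1.45% and 2.29% of the counts of a library. Microglia alone had a summed level of 19120.4 ± 1809 CPM (SD, n = 4). The sum was 18642 ± 1441 CPM beside untreated neurons (n = 3) and 17884 ± 3141 CPM beside fibril-loaded neurons (n = 4), and the group means differed by less than the SD of the last group. Ctsb and Ctsd carried most of the sum, 33.6% and 31.97% of it on average. They were the 9th and 10th most abundant of all genes in the table by mean level. The 7 cysteine proteases of the list (6 papain-like cathepsins and legumain) together reached 10302 ± 1642, 11077 ± 704 and 10287 ± 1502 CPM in the same order of groups.

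**Figure D1:**
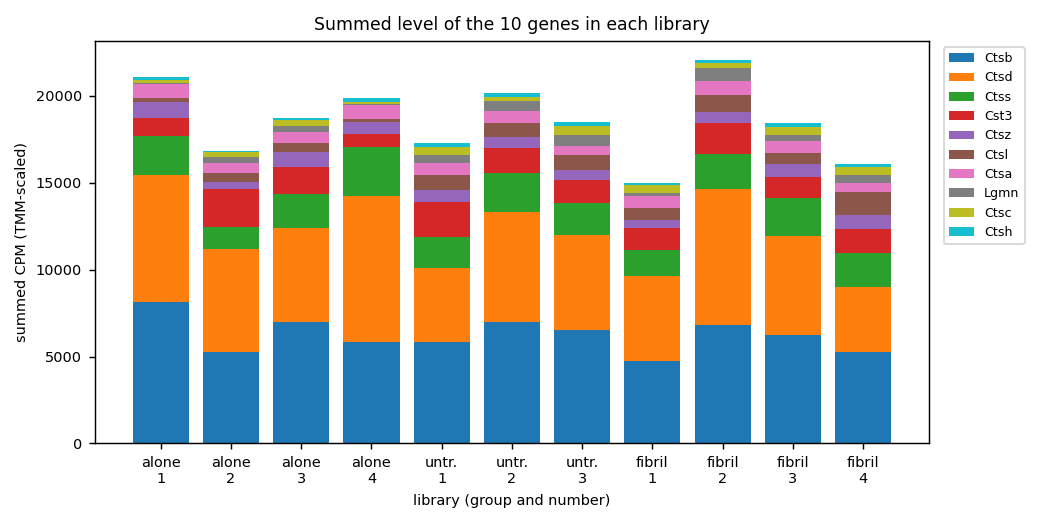
Summed TMM-scaled CPM of the 10 genes in each of the 11 libraries, stacked by gene, with the library's group and number on the x axis. Ctsb and Ctsd fill most of every bar, and the totals run from 14962 CPM (fibril-loaded, library 1) to 22060 CPM (fibril-loaded, library 2) with no separation of the groups.

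A 3′ kit reads about 1 tag per transcript, so CPM was compared between genes without division by length. By mean level over the 11 libraries the order was Ctsb, Ctsd, Ctss, Cst3, Ctsz, Ctsl, Ctsa, Lgmn, Ctsc and Ctsh. Several neighbours in that order were not separated. Ctsb was above Ctsd in 7 of 11 libraries, Ctsz above Ctsl in 4, Ctsl above Ctsa in 6 and Lgmn above Ctsc in 5. Ctsd was above Ctss, and Cst3 above Ctsz, in 11 of 11.

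None of the 10 genes passed the test in any of the 3 comparisons, which used edgeR's quasi-likelihood test with Benjamini-Hochberg (BH) adjustment over the 11276 genes tested and a threshold of 0.05. Among all genes tested, 0.639% were called between microglia with untreated neurons and microglia alone, 0.319% between microglia with fibril-loaded neurons and microglia alone, and 0% between the co-cultures. At an unadjusted p under 0.05, 3 members were higher and 0 lower beside untreated neurons, against 4.66% of all genes higher and 5.67% lower. The count was also 3 higher and 0 lower beside fibril-loaded neurons, against 4.25% and 3.89% of all genes. Between the co-cultures it was 0 in either direction, against 2.64% higher and 1.3% lower. The 3 were Ctsl, Lgmn and Ctsc in both. These comparisons share the libraries of microglia alone, so the values are given side by side and not as separate evidence.

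**Figure D2:**
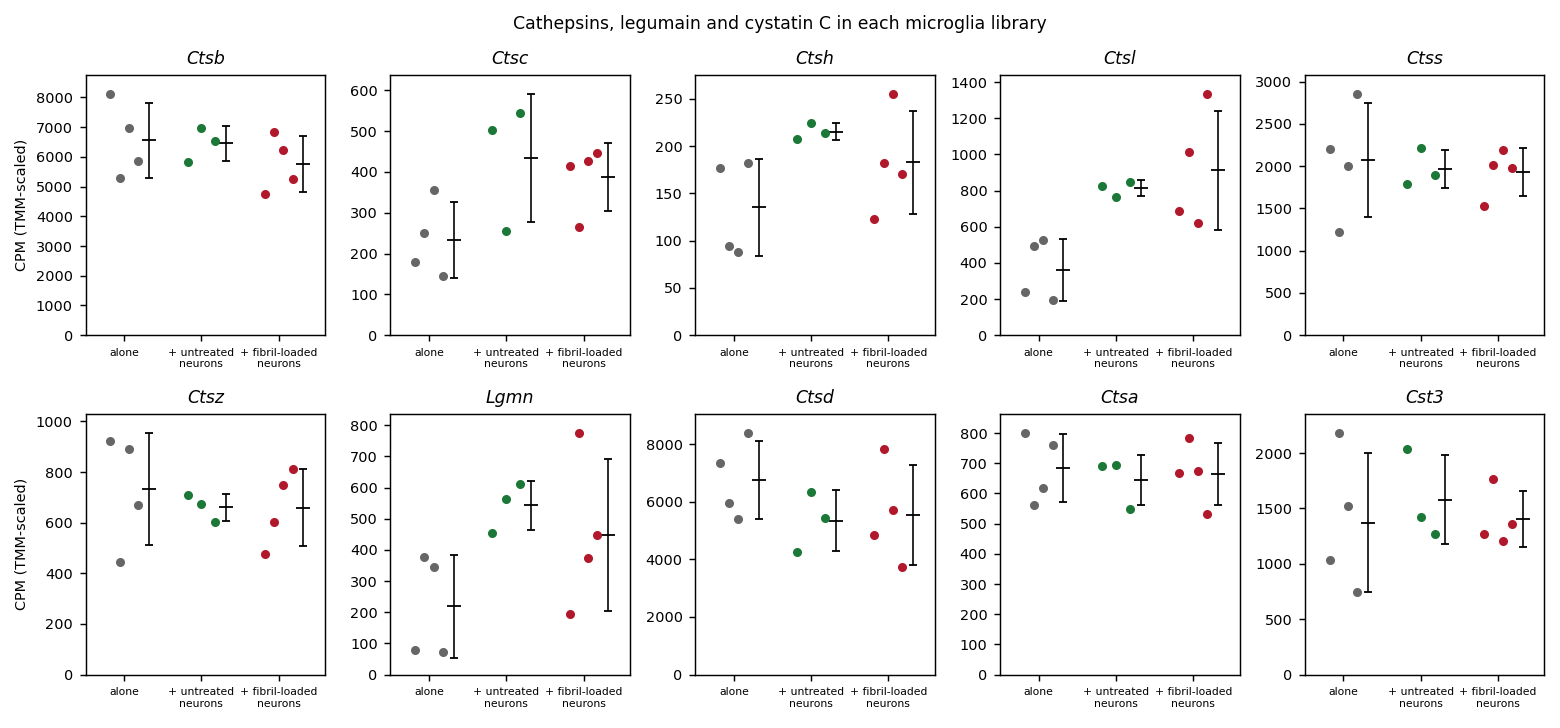
TMM-scaled CPM (y axis, from 0, scale set per gene) of each gene in each library, grey for microglia alone (n = 4), green beside untreated neurons (n = 3) and red beside fibril-loaded neurons (n = 4); bars are the mean ± SD. Ctsl lies between 194 and 525 CPM in microglia alone and between 618 and 1335 CPM in the 7 co-culture libraries, whereas the points of Ctsb, Ctss, Ctsz, Ctsa and Cst3 overlap in all groups.

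Ctsl, which encodes cathepsin L, a strong lysosomal endopeptidase, had the smallest p of the members in both comparisons with microglia alone. The gene lies at chr13:64361890-64370772 on the minus strand (RefSeq, GRCm38.p6). Its levels in microglia alone were 237, 493, 525 and 194 CPM. With untreated neurons they were 827, 765 and 848 CPM, and with fibril-loaded neurons 689, 1012, 618 and 1335 CPM. Every co-culture library was above every library of microglia alone, and the libraries with untreated neurons lay within a narrow band. The means were 362 ± 171 (n = 4), 813 ± 43.0 (n = 3) and 914 ± 329 CPM (n = 4).

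By edgeR's test the log2 fold change of Ctsl with untreated neurons was 1.17 (SE 0.34), with a BH-adjusted p of 0.155. With fibril-loaded neurons it was 1.33 (SE 0.32), with a BH-adjusted p of 0.1003, and 0.488% of the tested genes had a smaller p. The call depended on the method. DESeq2 called Ctsl in both comparisons, at BH-adjusted p of 0.0179 and 0.0024, where it called 1.55% and 1.2% of genes as higher. edgeR without the filter on low counts called it as well, at 0.0139 and 9.37e-04, with 1.1% and 0.808% of genes called as higher. limma on the normalized table called it beside fibril-loaded neurons but not beside untreated ones, at 0.0312, with 0.319% of genes called as higher there and 0.505% beside untreated neurons. Against the abundant cathepsins of the same library, Ctsl stood at 5.90 ± 3.67 per 100 CPM of Ctsd in microglia alone, 15.7 ± 3.70 beside untreated and 18.4 ± 11.7 beside fibril-loaded neurons. That ratio was between 2.32 and 9.73 in the libraries of microglia alone and between 10.8 and 35.8 in the co-cultures. The 35.8 was library 4 with fibril-loaded neurons. Libraries 1, 2 and 3 of that group were at 14.2, 12.9 and 10.8. Per 100 CPM of Ctsb, Ctsl stood at 5.78 ± 3.17, 12.7 ± 1.64 and 16.2 ± 6.57 in the same order of groups. Against Ctsb it lay between 2.92 and 9.36 in microglia alone and between 9.92 and 25.4 in the co-cultures.

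Lgmn encodes legumain, the asparaginyl endopeptidase that also matures several cathepsins by cleavage. It lies at chr12:102394082-102439728 on the minus strand. Lgmn was at 79.7, 377, 344 and 73.7 CPM in microglia alone, the widest relative spread of any member in a group, with a coefficient of variation of 75.2% against 2.43% from counting alone. It was at 455, 563 and 610.2 CPM with untreated neurons and at 194, 775, 373 and 449 CPM with fibril-loaded neurons. The ranges of microglia alone and untreated neurons did not overlap, whereas 2 libraries with fibril-loaded neurons fell within the range of microglia alone.

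The log2 fold change of Lgmn was 1.31 (SE 0.49) with untreated neurons, with an edgeR BH-adjusted p of 0.334, and 1.03 (SE 0.46) with fibril-loaded neurons, with 0.576. Without the filter on low counts edgeR called Lgmn in both, at 0.00496 and 0.0474; DESeq2 and limma did not. The second value was lowest, at 0.63, without library 2 of the fibril-loaded group.

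Ctsc encodes cathepsin C, or dipeptidyl peptidase 1, which activates granule serine proteases of immune cells. The gene lies at chr7:88278024-88315861 on the plus strand. It was at 179.9, 251, 355 and 145 CPM in microglia alone, at 503, 255 and 545 CPM with untreated neurons, and at 414, 265, 427 and 447 CPM with fibril-loaded neurons. In each co-culture group 1 library, number 2, lay inside the range of microglia alone. The log2 fold change was 0.90 (SE 0.34) and 0.74 (SE 0.31) in the same order, with edgeR BH-adjusted p of 0.334 and 0.566.

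Ctsh, at chr9:90054267-90076095 on the plus strand, encodes cathepsin H, an aminopeptidase, and was the least abundant member. Its levels were 177, 94.4, 87.6 and 182 CPM in microglia alone and 207, 225 and 214 CPM with untreated neurons. With fibril-loaded neurons they were 123, 183, 255 and 171 CPM. The libraries with untreated neurons lay closely together above all of those of microglia alone, whereas the fibril-loaded libraries spread across both. The log2 fold change was 0.67 (SE 0.33) with untreated and 0.44 (SE 0.31) with fibril-loaded neurons, with edgeR BH-adjusted p of 0.495 and 0.959.

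Counted by ranges that do not overlap, 3 of the 10 genes (Ctsl, Lgmn and Ctsh) were apart and higher with untreated neurons than in microglia alone, against 4.9% of all genes tested. With fibril-loaded neurons it was 1 of 10 (Ctsl), against 2.7%. In both comparisons 0 members lay apart and lower, against 5.45% and 2.92% of genes. Between the co-cultures 0 of 10 were apart, against 2.39% of genes higher and 2.3% lower. The median log2 fold change of the 10 genes was 0.09, -0.01 and -0.09 in the 3 comparisons, beside -0.05, -0.04 and 0 over all genes tested.

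Other measures moved with the groups. The 13 microglial markers summed to 11274 ± 906 CPM in microglia alone (10381 to 12182), 16456 ± 1599 with untreated neurons (14709 to 17847) and 15360 ± 2535 with fibril-loaded neurons (12303 to 18485), all 13 with counts in each group. They did not move alike. Cx3cr1 went from 602 to 1880 and 1858 CPM, C1qc from 2629 to 4167 and 3763 CPM and C1qa from 2333 to 3245 and 3290 CPM. Csf1r was at 1429, 1632 and 1386 CPM, and Sall1 at 5.31, 6.39 and 2.86 CPM. Rn45s, the ribosomal RNA precursor, took 14.001% to 24.8% of counts in microglia alone, 10.7% to 15.7% beside untreated and 10.97% to 17.01% beside fibril-loaded neurons. Markers of border-associated macrophages, close relatives of microglia, summed to 582 ± 79.9 CPM in microglia alone (472 to 649), 836 ± 85.3 with untreated neurons (739.9 to 902) and 748 ± 180.1 with fibril-loaded neurons (508 to 939). Of those 5 markers 3, 4 and 3 had counts; Lyve1 was at 0 in every library, and Pf4 and Mrc1 went opposite ways, from 241 to 606 and 553 CPM and from 317 to 194 and 157 CPM. Markers of the oligodendrocyte lineage, all 8 with counts in each group, summed to 149 ± 26.7 CPM in microglia alone (124 to 179), 235 ± 21.4 with untreated neurons (212 to 253) and 164 ± 60.8 with fibril-loaded neurons (124 to 254). These also went opposite ways. Cspg4 went from 15.6 to 59.8 and 73.9 CPM and Mbp from 67.5 to 103 and 53.9 CPM. Olig1 went from 26.7 to 12.4 and 15.5 CPM, and Olig2 and Sox10 also had lower means in both co-cultures. Astrocyte markers summed to 25.5 ± 9.90 CPM in microglia alone (17.9 to 39.8) and 51.2 ± 33.5 with untreated neurons (24.5 to 88.9). With fibril-loaded neurons they summed to 63.0 ± 42.4 CPM (17.0 to 102), so the ranges overlapped. Slc1a2 had means of 1.26 ± 1.75, 8.27 ± 12.9 and 24.4 ± 28.8 CPM, with lowest values of 0, 0 and 0.139 CPM. S100b was at 5.35, 4.17 and 4.64 CPM. The part of any of these in the levels of Ctsl, Lgmn, Ctsc and Ctsh was not tested. With Rn45s left out before scaling, 0 members were called in any comparison and the directions of these 4 genes were kept. Neuronal marker RNA was highest without added neurons, at 127 ± 43.7 CPM, against 18.3 ± 15.3 and 20.8 ± 17.4 CPM.

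**Figure D3:**
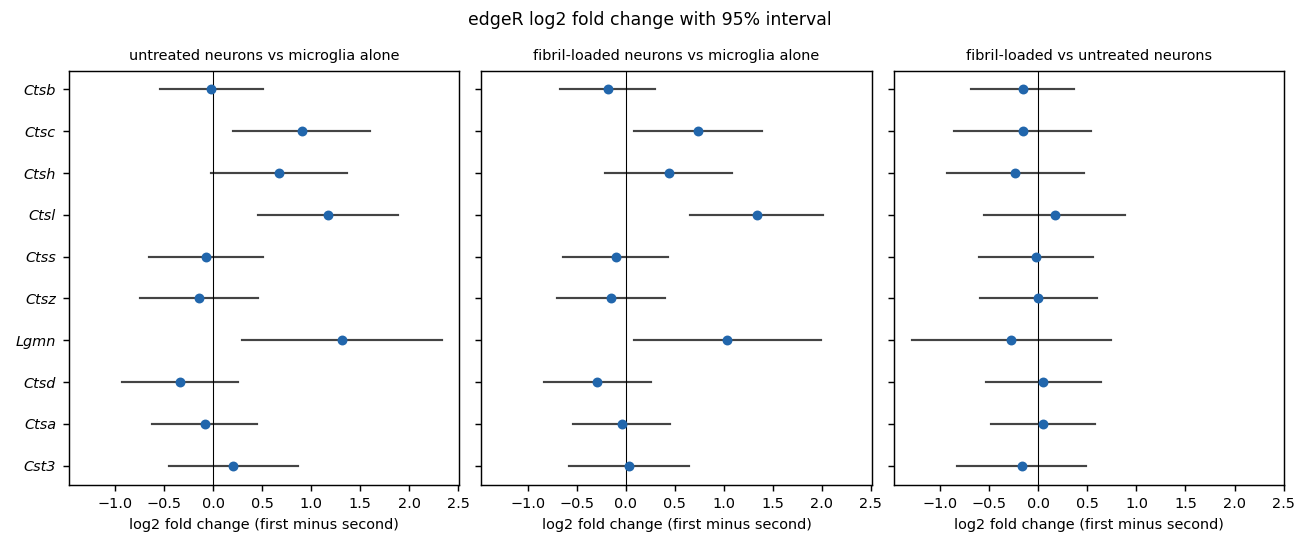
Log2 fold change of each gene (x axis, first group minus second) with its 95% interval from edgeR, in 1 panel per comparison. Ctsl lies at 1.17 and 1.33 against microglia alone, Ctsb, Ctss, Ctsz, Ctsa and Cst3 lie near 0, and in the panel of fibril-loaded against untreated neurons every interval crosses 0.

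The most abundant member, Ctsb (chr14:63122462-63145923, plus strand), encodes cathepsin B, a cysteine protease with endopeptidase and peptidyl-dipeptidase activity. It was at 8115, 5272, 6975 and 5845 CPM in microglia alone, at 5818, 6981 and 6542 CPM with untreated neurons and at 4751, 6833, 6229.7 and 5250.2 CPM with fibril-loaded neurons. The groups overlapped throughout. The log2 fold changes against microglia alone were -0.02 and -0.18, and the 95% intervals of the fold ran from 0.684 to 1.42 and from 0.628 to 1.23.

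Ctss encodes cathepsin S, which works at near-neutral pH and trims the invariant chain in antigen-presenting cells; it lies at chr3:95526786-95556405 on the plus strand. Its levels were 2202, 1219, 2002 and 2854 CPM in microglia alone, 1783, 2216 and 1891 CPM with untreated neurons and 1524, 2019, 2190.5 and 1981 CPM with fibril-loaded neurons. The libraries of microglia alone held both the lowest and the highest value. Ctsz, at chr2:174427494-174439039 on the minus strand, encodes the carboxypeptidase cathepsin Z. Its group means were 732 ± 221, 661 ± 53.3 and 659.8 ± 150.4 CPM, and its 11 values lay between 446 and 923 CPM with all groups overlapping. The log2 fold changes of these genes against microglia alone were between -0.15 and -0.08.

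Ctsd encodes cathepsin D, the main aspartic protease of lysosomes, and lies at chr7:142375910-142387827 on the minus strand. It was at 7342, 5938, 5393 and 8380.1 CPM in microglia alone, at 4254, 6353 and 5422 CPM with untreated neurons and at 4856, 7818, 5724 and 3726 CPM with fibril-loaded neurons. Means were lower in both co-cultures, at 5343 ± 1052 and 5531 ± 1730.2 CPM against 6763 ± 1355 CPM, with overlapping ranges. The log2 fold changes were -0.34 (SE 0.28) and -0.29 (SE 0.26), with edgeR BH-adjusted p of 0.838 and 1.00.

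Ctsa encodes cathepsin A, a serine carboxypeptidase that also shields β-galactosidase and neuraminidase 1 in a complex; it lies at chr2:164832872-164841032 on the plus strand. It was the steadiest member, between 533 and 800.0 CPM over the 11 libraries, with a coefficient of variation of 13.9%. Its group means were 685 ± 113, 644 ± 82.1 and 665 ± 103 CPM.

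The inhibitor gene Cst3 (chr2:148871722-148875512, minus strand) encodes cystatin C, which blocks papain-like cathepsins and, through a separate site, legumain. It was at 1036, 2179.95, 1519 and 743 CPM in microglia alone, at 2033, 1426 and 1273 CPM with untreated neurons and at 1266, 1769, 1209 and 1360.3 CPM with fibril-loaded neurons. Libraries of microglia alone held both extremes. Set against the 7 cysteine proteases of the same library, summed,, Cst3 stood at 14.1 ± 8.82 per 100 CPM in microglia alone, 14.4 ± 4.62 beside untreated and 13.7 ± 2.02 beside fibril-loaded neurons. The means of this ratio differed by less than the SD within any group. The log2 fold change of Cst3 was 0.20 (SE 0.32) with untreated and 0.03 (SE 0.29) with fibril-loaded neurons, with edgeR BH-adjusted p of 0.989 and 1.00.

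Fibril loading itself was addressed by the comparison between the co-cultures, whose labelled treatments differ only in whether the neurons had been loaded. Identifiers in the titles may mark sets of libraries, as described below. By them, library 4 with fibril-loaded neurons has no partner with untreated neurons. By edgeR's test each member had a BH-adjusted p of 1, and 0 members were called under any alternative, among them DESeq2, which called 1.19% of all genes as higher, edgeR without the filter on low counts, which called 0.0354%, and limma, which called 0%. The log2 fold changes ran from -0.28 for Lgmn to 0.17 for Ctsl. Their 95% intervals, put as folds, reached from 0.408 for Lgmn to 1.85 for Ctsl. For the abundant proteases the intervals were 0.622 to 1.29 for Ctsb and 0.689 to 1.56 for Ctsd. With 4 and 3 libraries, differences within these bounds cannot be dismissed.

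The spread within groups exceeded counting error for each gene in each group. Counting alone gave coefficients of variation between 0.327% and 2.67%, against 4.204% to 75.2% observed. In microglia alone the members did not spread together. Libraries 1 and 4 had the lower values of Ctsl, Lgmn, Ctsc and Cst3 and the higher values of Ctsh, Ctss and Ctsd, and libraries 2 and 3 the reverse. These libraries also differed in the number of genes detected, 9784 and 10020 against 11739 and 10671, while their Rn45s shares were 24.8% and 14.001% against 20.1% and 18.7%. The part of these measures in the spread was not tested.

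**Figure D4:**
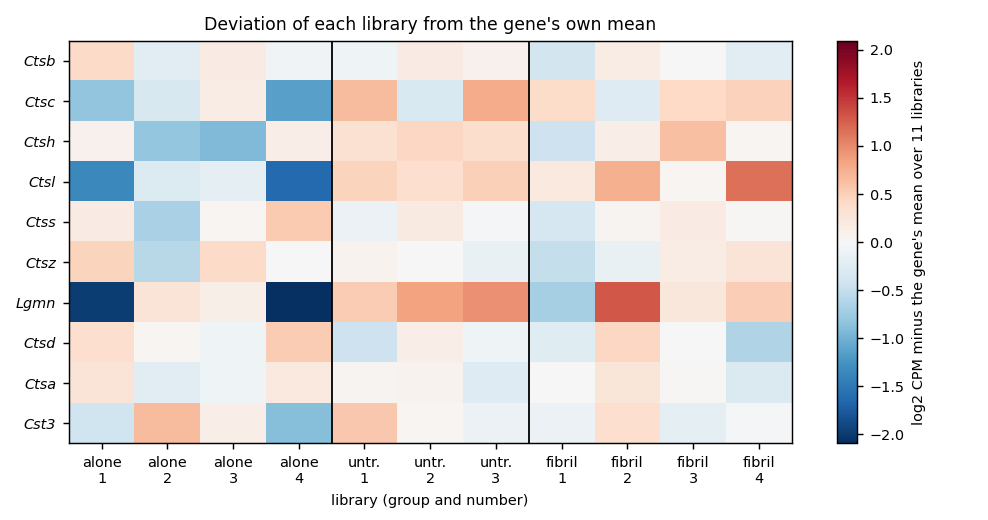
Deviation of log2 CPM from the gene's mean over the 11 libraries, 1 row per gene and 1 column per library, red above and blue below the mean; black lines separate the groups. Lgmn and Ctsl are bluest in libraries 1 and 4 of microglia alone, the same columns in which Cst3 is blue and Ctsd is red.

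Over the 11 libraries, log2(CPM + 1) of Ctsl and Lgmn had a Pearson correlation of 0.88, and 0.85 after the group means had been removed. Lgmn and Cst3 correlated at 0.72, with 0.77 within groups. Ctsd went against Ctsc at -0.83 and with Ctsa at 0.69, and Ctss went against Cst3 at -0.74. These are descriptions over libraries that share groups and scaling. Of 3062 other genes at 50 CPM or more, the pattern of Ctsl was most like that of Efhd2, a calcium-binding actin regulator (r = 0.98), and of the amino acid transporter gene Slc7a8 (0.96). For Lgmn they were Tmsb4x, which encodes thymosin β4 (0.96), and the proteasome gene Sem1 (0.96). For Ctsc they were the actin regulator Vasp (0.94) and the NF-κB inhibitor gene Nfkbia (0.94). Ctss was most like Ubxn8 (0.98) and Rplp0 (0.91), Ctsh like Slc38a6 (0.93) and Oas1a (0.85), and Ctsz like Cybb (0.86) and Wasf2 (0.85). Ctsb was most like Fam168a (0.88) and Trappc2l (0.86), and Cst3 like Txnip (0.93) and Dpysl2 (0.92). Ctsd was most like Dhrs3 (0.91) and the lysosomal fucosidase gene Fuca1 (0.89), and Ctsa like Daglb (0.90) and the proton pump gene Atp6v1e1 (0.88).

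Related genes were taken from 4 lists. Of 14 other lysosomal proteases, 9 were tested and 0 were called in any comparison, also at an unadjusted p under 0.05. Prcp, a lysosomal carboxypeptidase gene, had the smallest p of these, with 18.5 ± 12.7 CPM in microglia alone, 56.0 ± 23.0 beside untreated and 26.7 ± 15.0 beside fibril-loaded neurons. Scpep1, a serine carboxypeptidase gene, was at 203 ± 59.0, 197 ± 15.0 and 144 ± 34.8 CPM. Ctso, which encodes cathepsin O, was at 13.8 ± 9.17, 18.6 ± 3.84 and 25.8 ± 15.7 CPM.

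Of 16 other inhibitors (cystatins, stefins and serpins), 4 were tested and 0 called by edgeR. At an unadjusted p under 0.05, 1, Cstb, was higher in each comparison with microglia alone, against 4.66% and 4.25% of all genes tested. Cstb encodes stefin B, the cytosolic inhibitor of papain-like cathepsins, and was at 360.3, 897, 1091 and 577 CPM in microglia alone. It was at 876, 1711 and 1629 CPM with untreated neurons and at 954, 2282, 1665 and 1606 CPM with fibril-loaded neurons. In each co-culture group library 1 lay within the range of microglia alone. The log2 fold changes were 0.94 and 1.15, with edgeR BH-adjusted p of 0.342 and 0.195; DESeq2 called the second, at 0.0199, and so did edgeR without the filter on low counts, at 0.00602. Serpinb6a was at 480.5 ± 165.5, 371 ± 110 and 325 ± 37.4 CPM, and Cst7, the gene of cystatin F, at 29.7 ± 13.2, 25.2 ± 18.7 and 22.0 ± 15.8 CPM.

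Of 19 genes for sorting, activation and transcription of lysosomal proteases, all 19 were tested and 0 called. At an unadjusted p under 0.05, 1 was higher and 2 were lower beside untreated neurons, against 4.66% and 5.67% of all genes tested. Beside fibril-loaded neurons 1 was higher and 1 lower, against 4.25% and 3.89%. Over 19 genes such counts are not read as a response of the list. M6pr, the cation-dependent mannose 6-phosphate receptor gene, was at 38.1, 111, 192 and 78.6 CPM in microglia alone. With untreated neurons it was at 292, 203 and 324 CPM, with no overlap, and with fibril-loaded neurons at 101.04, 325, 129 and 343 CPM, with overlap. Its edgeR BH-adjusted p were 0.243 and 0.499, and without the filter on low counts the first was 0.00814. Sort1, the gene of the sorting receptor sortilin, was at 53.4 ± 25.4, 18.5 ± 7.76 and 15.2 ± 9.38 CPM, with ranges below that of microglia alone in both co-cultures and BH-adjusted p of 0.482 and 0.435. Tmem192, a lysosomal membrane protein gene, was at 71.6 ± 27.2, 21.7 ± 14.3 and 34.1 ± 9.09 CPM, with BH-adjusted p of 0.252 and 0.615. Its range with untreated neurons, 5.81 to 33.4 CPM, lay below that of microglia alone, 41.4 to 107 CPM.

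Of 12 other proteases linked to α-synuclein, most of them known to cut it, 7 were tested. Of these 1, Mmp14, was called as higher in both comparisons with microglia alone, where 0.639% and 0.319% of all genes were called in either direction. Mmp14 encodes a matrix metalloproteinase anchored in the cell membrane. It was at 42.8, 52.9, 59.2 and 39.0 CPM in microglia alone, at 244, 75.2 and 627 CPM with untreated neurons and at 296, 85.4, 423 and 341 CPM with fibril-loaded neurons. All co-culture libraries lay above those of microglia alone, library 2 of each group by little. Mmp14 rose by a log2 of 2.70 (SE 0.52) and 2.56 (SE 0.50), with edgeR BH-adjusted p of 0.0150 and 0.0195.

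The call of Mmp14 beside untreated neurons was lost without library 1, 2 or 4 of microglia alone or library 3 with untreated neurons, and without the last the log2 fold change was 1.72. Beside fibril-loaded neurons it was lost without library 1, 2 or 4 of microglia alone or library 1, 3 or 4 with fibril-loaded neurons. Both calls were also lost without library 1 of every group, at 0.0786 and 0.117, and the second with only genes of at least 5 CPM tested, at 0.0543. The adjusted p over the fits that left out 1 library ran from 0.00121 to 0.162 and from 0.00530 to 0.106. Of the other genes of the list, Casp1 was at 37.3 ± 15.9, 47.9 ± 3.80 and 60.5 ± 17.9 CPM and Prep, the gene of prolyl oligopeptidase, which acts on short peptides, at 21.2 ± 8.15, 17.6 ± 2.13 and 15.7 ± 11.04 CPM.

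**Figure D5:**
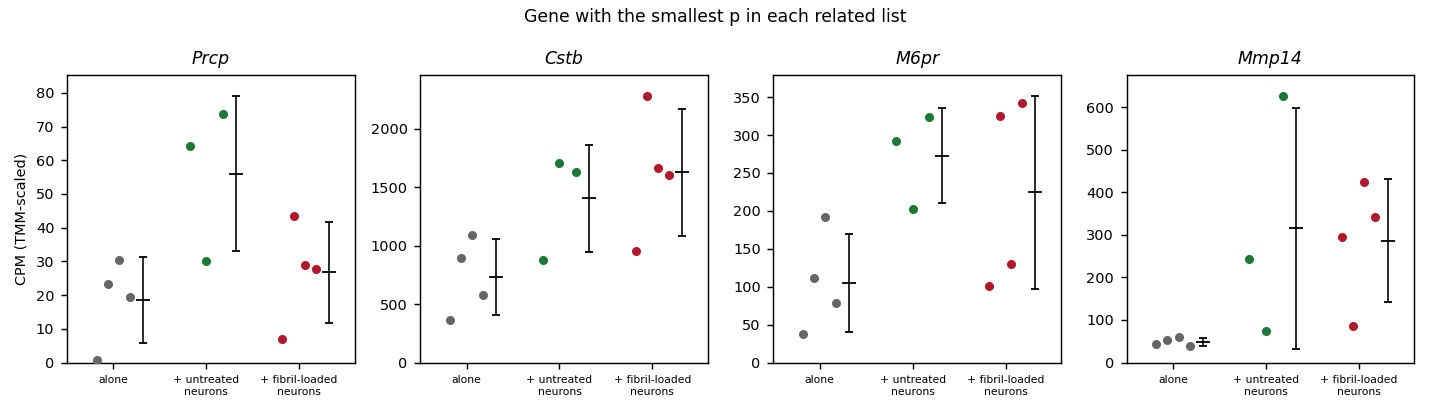
TMM-scaled CPM of the gene with the smallest p in each of 4 related lists, by library and group (grey, alone; green, untreated neurons; red, fibril-loaded neurons), with mean ± SD. Mmp14 lies between 39.0 and 59.2 CPM in microglia alone and between 75.2 and 627 CPM in the co-cultures, whereas Prcp and Cstb overlap between groups and M6pr overlaps between microglia alone and the fibril-loaded group.

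Some counts may include reads of neighbours. In the GENCODE M21 annotation the last exon, where a 3′ kit reads, overlaps Fdft1 for Ctsb, Nelfcd for Ctsz and Pltp for Ctsa on the opposite strand, and the gene model Gm49369 for Ctsd on the same strand. The labels do not say whether counting used strand, so the levels of Ctsb, Ctsz and Ctsa are uncertain to that extent. Strand cannot separate Ctsd from Gm49369, so the level of Ctsd is uncertain either way. The last exons of Ctsl, Lgmn, Ctsc, Ctsh, Ctss and Cst3, in the GENCODE transcript used for each, overlapped no other annotated gene. Outside those exons, Ctsl overlaps the pseudogene Gm49230 on the same strand and Gm47123 on the opposite strand. Ctss overlaps the pseudogene Hmgb1-ps5 on the same strand, and Ctsc overlaps Gm26522 on the opposite strand. Ctsa also overlaps Neurl2, on the opposite strand and outside its last exon. In RefSeq, Ctsl and Ctsc reach further 3′ than the exons used, to chr13:64361890 and chr7:88315861. In GENCODE the Ctsl gene reaches further still, to chr13:64359337. Overlaps at those ends were not checked, so the levels of Ctsl and Ctsc are uncertain to that extent.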

How the data were processed

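RNA of microglia was sequenced with a 3′ kit (QuantSeq FWD), per the labels' protocols. Per the submitters' processing notes, the tools were STAR, Partek and DESeq2 and the build was mm10, with no version given. The authors deposited raw counts, 1 row per gene symbol. A second deposited table holds normalized values and is used here as a score: between 98.9% and 100% of its values in a library lay within 0.51 of the raw count over a factor fixed for that library. Counting by strand and removal of duplicates are not given in the sources used here.

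The counts were tested with edgeR 4.0.16 (R 4.3.3) after filterByExpr, which kept 11276 of 16934 genes, and TMM scaling. The quasi-likelihood test was two-sided, fitted group alone over the 11 libraries, and was BH-adjusted over the genes tested. Libraries were numbered within groups in order of deposition. CPM is given as mean ± SD; intervals of a fold are 95% intervals from edgeR's standard error. The common biological coefficient of variation was 1.15. Correlations used log2(CPM + 1). Alternatives were RLE scaling, no filter, a mean CPM of at least 5, Rn45s left out, only the 2 groups compared, DESeq2 1.42.0, limma 3.58.1 on log2 of the deposited normalized score plus 1, and each library left out; 2 more were added after seeing the data, without the fewest-gene library of each group and with a block for sets of title identifiers.

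The members and lists were chosen with earlier results of these data known. All members are named, and of each related list the 3 genes with the smallest p at a mean of 10 CPM or more. Motifs were chosen after the sequences had been seen. Positions and promoters are from RefSeq GRCm38.p6, whose chromosomes are those of mm10. The code was tested on simulated data.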

Additional observations from a re-analysis of the deposited data

How the results depend on the processing

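Against 0 members called, edgeR without the low-count filter called 2 in each comparison with microglia alone (Ctsl and Lgmn), DESeq2 called 1 in each (Ctsl), and limma on the normalized table called 1 with fibril-loaded neurons (Ctsl); the cause was not tested. Each fit that left out 1 library called 0 members, as did all fits between the co-cultures. Ctsl, Lgmn, Ctsc and Ctsh kept a positive log2 fold change against microglia alone in every alternative, from 0.96 to 1.58 for Ctsl, 0.63 to 1.72 for Lgmn, 0.57 to 1.18 for Ctsc and 0.23 to 0.87 for Ctsh.

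Between the co-cultures, Ctsz went from -0.00332 to 0.00853 without the filter, 0.000515 without Rn45s and 2.89e-05 with only the 2 groups compared. An alternative chosen after seeing the data left out, in each group, the library in which fewest genes were detected (number 1). It turned Ctsb to 0.18, Ctss to 0.0330 and Cst3 to -0.11 with untreated neurons against alone. With fibril-loaded neurons against alone it turned Ctsb to 0.0315, Ctss to 0.0381, Ctsz to 0.12, Ctsa to 0.0493 and Cst3 to -0.0164. Between the co-cultures it turned Ctss to 0.00512, Ctsz to 0.18, Ctsd to -0.0363 and Cst3 to 0.0979.

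With 1 library left out, sign also changed for untreated neurons against alone in Ctsb (-0.11 to 0.0956), Ctss (-0.26 to 0.12), Ctsa (-0.17 to 0.0128) and Cst3 (-0.0203 to 0.53). For fibril-loaded neurons against alone it changed in Ctss (-0.27 to 0.0937), Ctsa (-0.13 to 0.0541) and Cst3 (-0.17 to 0.37). Between the co-cultures it changed in Ctsc (-0.43 to 0.0346), Ctsl (-0.0726 to 0.32), Ctss (-0.0921 to 0.0717), Ctsz (-0.12 to 0.12), Ctsd (-0.16 to 0.20), Ctsa (-0.0565 to 0.14) and Cst3 (-0.30 to 0.0718). In all, 45 of the alternative values of single members changed sign, 8 passed the threshold and 437 did neither. Leaving out Rn45s raised the summed level of the members to 22520.2, 21999.7 and 21138 CPM.

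The labels give no replicate numbers, but identifiers in the titles recur at a step of 7 within each group and may mark 4 sets of libraries. Across the 11276 genes tested, deviations from the group means correlated between -0.0257 and 0.0578 over the 10 pairs of libraries of 1 set. Over the 30 other pairs they correlated between -0.0476 and 0.0437. The medians were 0.0333 and -0.0113, and 6 of 11 libraries correlated best with a library of their own set. Across the 3118 genes of 50 CPM or more, the medians were 0.126 and -0.0556. There the ranges overlapped, -0.105 to 0.320 and -0.231 to 0.210, and 7 of 11 libraries correlated best within their set. Whether the sets pair the libraries was not tested. A fit with these sets as a replicate block, also chosen after seeing the data, called 1 member with fibril-loaded neurons against alone (Ctsl, adjusted p 0.0284) and 0 in the other comparisons (Ctsl with untreated neurons, 0.0502). Over all genes it called 95, 66 and 0, against 72, 36 and 0 without the block. With untreated neurons against alone it turned Ctsb to 0.0259, Ctss to 0.0142 and Ctsz to 0.0295.

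Every member had at least 882 counts in every library, so counting error was small beside the spread between libraries, and the number of libraries sets the precision.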
